A study of Mus musculus with 6 samples.

Results

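The collagen genes were read from a table of mouse embryonic fibroblasts (MEFs) on day 2 of reprogramming towards pluripotency. They were the rows whose name is Col, a number, the letter a and a number with nothing after it, which gave 44 of the 18301 genes in the table. Of these, 29 had a mean of at least 1 RPKM (reads per kilobase of transcript, scaled to library size) over the 6 libraries and are described by structural class, and 15 lay below. The mean was 1.23 RPKM for Col20a1, the member just inside that limit, and 0.572 RPKM for Col10a1, the one just outside. All 29 also had a mean of at least 1 RPKM in the control libraries alone.

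The series asked how the CDP-ethanolamine pathway, which makes the membrane lipid phosphatidylethanolamine, acts on the transition of fibroblasts to epithelial cells during reprogramming. Polyadenylated RNA was sequenced from 6 libraries of cells of the strain CBA/CaJ X C57BL/6J, all on day 2 of reprogramming in the defined medium iCD1 and all transfected with a short hairpin RNA (shRNA). The shEtnk1/2 library carried shRNA against the ethanolamine kinases Etnk1 and Etnk2, the shPcyt2 library shRNA against the next enzyme of the pathway, and the Etn-deprived library the shLuc control shRNA in iCD1 without ethanolamine (Etn). The shPebp1 library carried shRNA against phosphatidylethanolamine-binding protein 1, and 2 control libraries carried shLuc, directed at luciferase. Each treatment had 1 library, so tests of a single treated library take their spread from the shLuc pair, unless stated otherwise. The labels do not state whether these controls were grown as separate cultures, so p-values measure the spread between these samples, which may be technical.

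Collagens are extracellular proteins whose chains wind around each other into a stiff helix. Fibrillar collagens, with type I the most abundant in connective tissue, form the tension-bearing fibrils. FACIT collagens bind to the surface of those fibrils, the type IV chains form the sheet-like network of basement membranes, and the type VI chains form beaded microfilaments around cells. Fibroblasts are the main producers of fibrillar collagen, and mesenchymal cells lay down more of it than epithelial cells do.

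Each library held between 18467583 and 20020465 reads in genes. Etnk1 had 12.5 RPKM in shEtnk1/2, against 21.02 and 21.4 RPKM in shLuc (log2 difference -0.71, SE 0.09, limma adjusted p = 0.00401). Etnk2 had 15 reads in shEtnk1/2, against 21 and 45 in shLuc. Pcyt2 had 29.9 RPKM in shPcyt2, against 42.0 and 40.0 RPKM in shLuc, a log2 difference of -0.44 that was not called. Pebp1 had 99.6 RPKM in shPebp1, against 250.4 RPKM in shLuc replicate 1 and 100.7 RPKM in the library labelled shLuc replicate 2. In shEtnk1/2, shPcyt2 and Etn-deprived, Pebp1 lay 0.52, 0.73 and 0.40 above the shLuc mean on the log2 scale. The low value in shLuc replicate 2 goes against its label. The counts and medians over the collagens are therefore also given against each control library alone. The p-values still take their spread from this pair. All 8 fibroblast markers examined (Thy1, Pdgfra, Pdgfrb, Vim, Fn1, S100a4, Dcn and Lum) were expressed in every library, with a summed level of 3368 to 4014 RPKM. Where an interval is given, it is a 95% Poisson interval from the reads recovered from the values and covers counting error only.

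Collagen transcripts were among the most abundant of the table. Col1a2 and Col1a1, the chains of type I collagen, ranked 2 and 3 by mean RPKM of all genes, with means of 2798 and 2618 RPKM. Col3a1, the chain of type III collagen, which accompanies type I in elastic tissues, ranked 5 with 2221 RPKM. These 3 chains held between 73.9% and 77.5% of the summed collagen RPKM of each library. Below them came the microfibrillar Col6a1 with a mean of 520.5 RPKM and Col6a2 with 393.8 RPKM, the fibrillar Col5a2 with 277.8 and Col5a1 with 259.7 RPKM, and the FACIT Col12a1 with 202.8 RPKM. The basement membrane chains Col4a1 and Col4a2 had means of 174.5 and 164.2 RPKM, Col6a3 of 144.4 RPKM and Col11a1 of 106.1 RPKM. The other expressed members had means of 1.23 to 62.4 RPKM.

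By class, 10 of 11 fibrillar members, 4 of 9 FACIT members, 4 of 6 basement membrane members and 3 of 6 microfibrillar members were expressed. Outside these classes, 2 of 3 short chain network members (Col8a1 and Col8a2), both multiplexins (Col15a1 and Col18a1), 1 of 4 transmembrane members (Col23a1), the anchoring fibril gene Col7a1, and Col26a1 and Col28a1 were expressed.

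**Figure D1:**
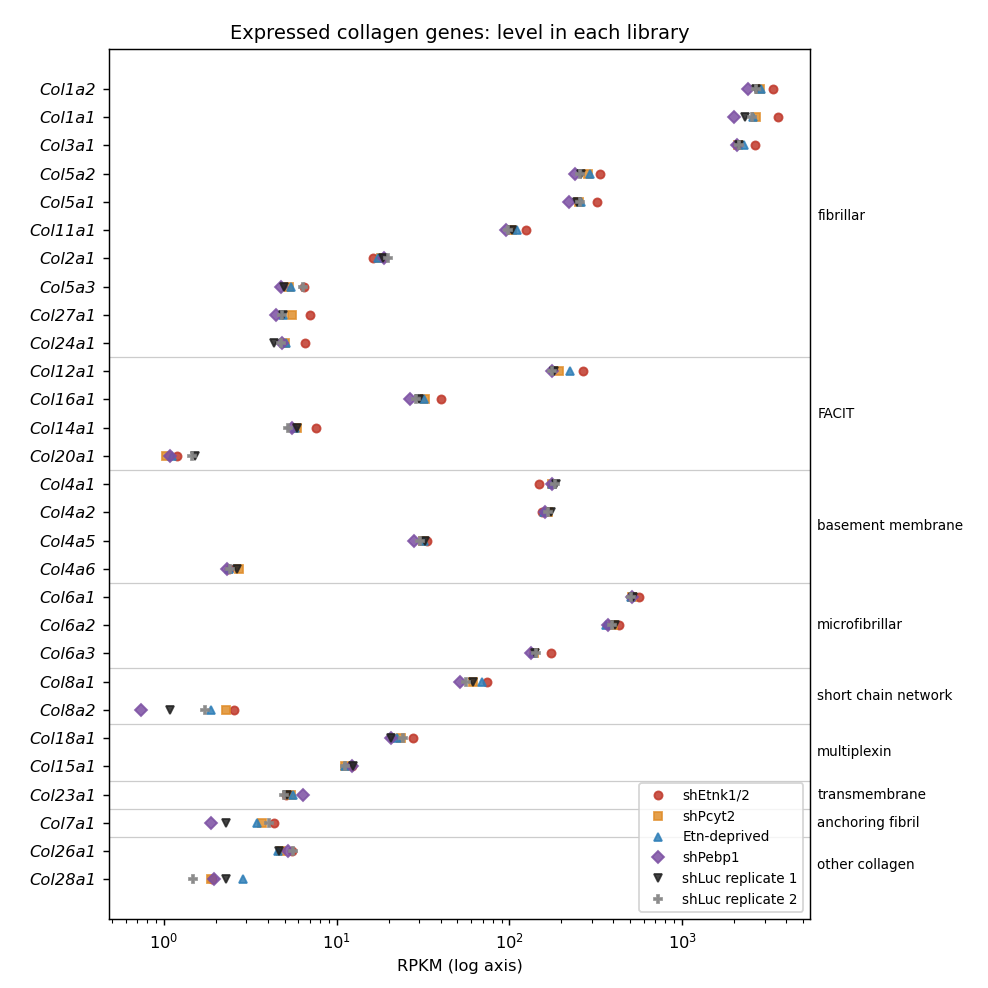
Level in RPKM, on a log axis, of the 29 expressed collagen genes in each of the 6 libraries, ordered by class and then by mean. The shEtnk1/2 points lie to the right of the others for 20 of the 29 genes, while Col4a1, Col4a2 and Col2a1 have them at the left.

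The sequence before the start of 4 fibrillar genes that differed between shEtnk1/2 and shLuc is given here, because these genes rose together. RefSeq windows (build GRCm38.p6) of 250 bases before the annotated start were available for 35 of the 44 collagen genes and for 6 of the 9 genes called higher in shEtnk1/2. Col1a1, Col5a2 and Col12a1 had none in the set used here. Capitals mark CCAAT, a motif bound by the factor NF-Y, and GGGCGG, a motif bound by factors of the Sp family, each on either strand (their reverse complements are ATTGG and CCGCCC), and TATAAA on the sense strand. The windows lie on the + strand at chr6:4505368-4505617 for Col1a2, chr1:45311288-45311537 for Col3a1, chr2:27886175-27886424 for Col5a1 and chr3:114030290-114030539 for Col11a1.
Col1a2: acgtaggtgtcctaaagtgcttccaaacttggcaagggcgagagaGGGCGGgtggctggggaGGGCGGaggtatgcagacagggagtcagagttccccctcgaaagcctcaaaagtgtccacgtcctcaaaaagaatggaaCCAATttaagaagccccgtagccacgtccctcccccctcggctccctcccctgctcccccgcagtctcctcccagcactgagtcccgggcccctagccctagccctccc
Col3a1: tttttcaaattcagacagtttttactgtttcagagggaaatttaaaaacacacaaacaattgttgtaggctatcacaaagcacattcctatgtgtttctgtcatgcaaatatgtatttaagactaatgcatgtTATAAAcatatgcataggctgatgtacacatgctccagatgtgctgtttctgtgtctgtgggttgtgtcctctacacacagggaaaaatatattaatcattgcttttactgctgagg
Col5a1: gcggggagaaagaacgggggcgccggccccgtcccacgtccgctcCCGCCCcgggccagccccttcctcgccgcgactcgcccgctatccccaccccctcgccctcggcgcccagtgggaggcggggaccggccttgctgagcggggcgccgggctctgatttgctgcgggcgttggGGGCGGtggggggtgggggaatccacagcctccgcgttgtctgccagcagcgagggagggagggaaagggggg
Col11a1: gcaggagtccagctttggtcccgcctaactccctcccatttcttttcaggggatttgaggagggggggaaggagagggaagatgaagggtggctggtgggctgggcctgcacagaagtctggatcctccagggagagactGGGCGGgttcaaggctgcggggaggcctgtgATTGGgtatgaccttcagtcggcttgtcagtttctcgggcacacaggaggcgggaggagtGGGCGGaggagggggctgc
The Col1a2 window held CCAAT 109 bases before the RefSeq start and GGGCGG 188 and 205 bases before it. That window ends at 4505617, while the gene position of the deposited data begins at 4505697, so the distances hold for the RefSeq start only. In Col3a1 the one match was TATAAA, 117 bases before the start. The Col5a1 window held GGGCGG on the sense strand 73 bases and on the antisense strand 205 bases before the start, and the Col11a1 window held GGGCGG at 19 and 110 bases and antisense CCAAT at 79 bases. GGGCGG stood in 15 of the 23 windows of expressed collagens and in 32.9% of the windows of 27025 genes. CCAAT stood in 9 of the 23 and in 34.5% of all windows, and TATAAA in 1 of the 23 and in 8.1% of all. A match describes the letters and is not a measured binding site.

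Several fibrillar and FACIT collagen transcripts were higher in shEtnk1/2 than in shLuc. In shEtnk1/2 against shLuc, 9 of the 29 expressed collagens rose (where 1.09% of the 11939 genes tested were called higher), and 1, Col4a1, fell (2.37% of all genes were called lower). The 9 were 6 of 10 fibrillar members, 2 of 4 FACIT members and 1 of 3 microfibrillar members. The log2 difference was above 0 for 24 of the 29, against 35.7% of all genes tested, with a median of 0.30 over the 29 and -0.06 over all genes. Of the 29, 18 had an unadjusted p under 0.05, as did 2284 of the 11939 genes tested. Scaled to a common median ratio of all genes, 10 collagens were called higher and 0 lower, and the calls over all genes were 137 higher and 112 lower, against 130 and 283 without that scaling. With the trend with transcript length removed, 4 collagens remained (Col1a1, Col1a2, Col3a1 and Col12a1, all higher), quantile normalization left 5, and the fit without a filter on low values left 0. The differences themselves moved little with the length trend removed (Col5a2 0.36, Col5a1 0.35, Col4a1 -0.32) and not at all without the filter.

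Among the fibrillar genes, Col1a1 (mm10 chromosome 11, 94936270 to 94951856) had 3600.05 RPKM in shEtnk1/2, 2683 in shPcyt2, 2581 in Etn-deprived and 2002 in shPebp1, against 2322 and 2523 RPKM in shLuc replicates 1 and 2. The shEtnk1/2 library stood above the other 5 and shPebp1 below them, far outside counting error (3587 to 3611.5 RPKM for the shEtnk1/2 value). The level was 1.49 times the shLuc mean in shEtnk1/2, a log2 difference of 0.57 (SE 0.06, limma adjusted p = 0.00291). Its partner Col1a2 (chromosome 6, 4505697 to 4541543) had 3348 RPKM in shEtnk1/2, 2810.15 in shPcyt2, 2876 in Etn-deprived and 2399 in shPebp1, against 2684 and 2672 RPKM in shLuc. The order of the highest and lowest libraries was the same as for Col1a1, and the difference from shLuc was smaller, 0.32 on the log2 scale (SE 0.05, limma adjusted p = 0.0121). Under quantile normalization, which gives genes of equal rank in their library equal values, the Col1a2 difference turned to -0.09 and that of Col1a1 fell short of the threshold at 0.17.

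Col3a1 (chromosome 1, 45311538 to 45349706) had 2634 RPKM in shEtnk1/2, 2106 in shPcyt2, 2271 in Etn-deprived and 2072 in shPebp1, against 2122 and 2119 RPKM in shLuc. It rose by 0.31 in shEtnk1/2 (SE 0.05, limma adjusted p = 0.0136), and the other treated libraries lay between 2072 and 2271 RPKM. The neighbouring Col5a2, which ends 24624 bases from the end of Col3a1 on the opposite strand, codes for a chain of type V collagen, which limits the width of type I fibrils. Col5a2 had 334.7 RPKM in shEtnk1/2, 284.2 in shPcyt2, 291.9 in Etn-deprived and 239.8 in shPebp1, against 258.4 and 257.7 RPKM in shLuc. It rose by 0.37 (SE 0.06, limma adjusted p = 0.0132). Col5a1, the other main type V chain, had 322.4 RPKM in shEtnk1/2, 253.9 in shPcyt2, 259.3 in Etn-deprived and 220.9 in shPebp1, against 246.0 and 255.6 RPKM in shLuc, and rose by 0.36 (SE 0.06, limma adjusted p = 0.0163). The differences of these type V chains were close to each other.

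Col11a1, a chain of type XI collagen, known from the fibrils of cartilage, had 125.1 RPKM in shEtnk1/2, 102.9 in shPcyt2, 110.5 in Etn-deprived and 95.1 in shPebp1, against 104.1 and 98.7 RPKM in shLuc. It rose by 0.30 (SE 0.07, limma adjusted p = 0.0458), close to the threshold. The 4 remaining fibrillar genes were low and did not pass. Col27a1 had 6.99 RPKM in shEtnk1/2, against 4.87 and 4.82 RPKM in shLuc, and Col24a1 had 6.53 RPKM, against 4.33 and 4.78 RPKM. Their log2 differences were 0.45 and 0.44, with limma adjusted p = 0.0987 and 0.114. Col5a3, a less widespread type V chain, had 6.47 RPKM in shEtnk1/2, against 4.96 and 6.39 RPKM in shLuc, and could not be told from shLuc (0.17, limma adjusted p = 0.603). Col2a1, the main fibrillar collagen of cartilage, had 16.2 RPKM in shEtnk1/2, against 18.5 and 19.9 RPKM in shLuc, with a log2 difference of -0.23 (limma adjusted p = 0.221), the one fibrillar gene below both controls there.

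**Figure D2:**
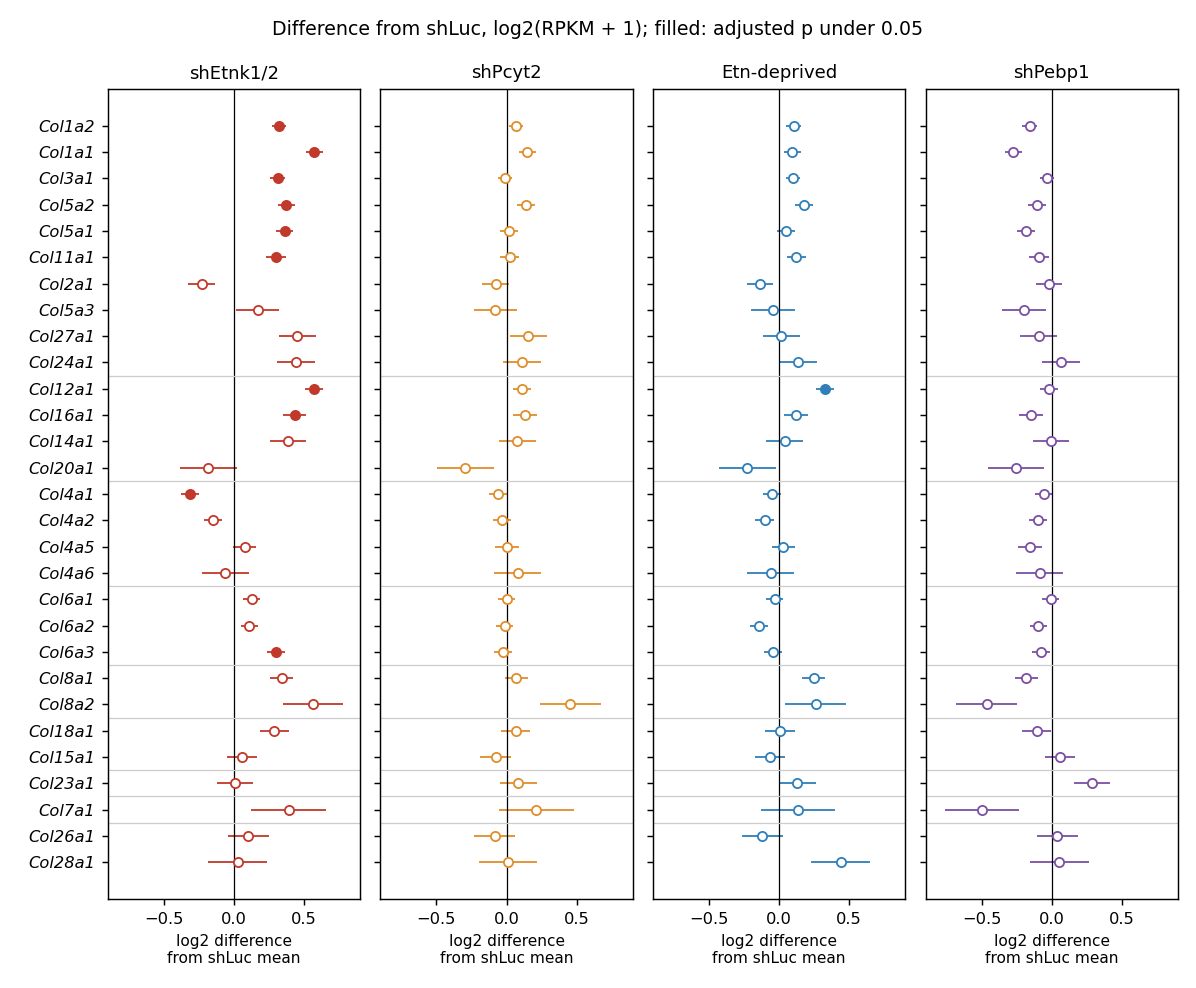
Log2 difference from the shLuc mean, on the log2(RPKM + 1) scale, of the 29 expressed collagens in each treated library, with bars of 1 SE; filled points had a limma adjusted p under 0.05. Filled points number 10 in shEtnk1/2 (Col4a1 to the left of 0, the others to the right), 1 in Etn-deprived (Col12a1) and 0 in shPcyt2 and shPebp1.

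Of the FACIT genes, Col12a1 (chromosome 9, 79598987 to 79718722), whose product is found in dense connective tissue, had 265.4 RPKM in shEtnk1/2, 193.1 in shPcyt2, 224.8 in Etn-deprived and 176.4 in shPebp1, against 181.9 and 175.4 RPKM in shLuc. It rose by 0.57 in shEtnk1/2 (SE 0.06, limma adjusted p = 0.00292) and by 0.33 in Etn-deprived (SE 0.06, limma adjusted p = 0.0219). These 2 libraries were the highest, and the others lay between 175.4 and 193.1 RPKM. Col16a1, a FACIT gene of fibroblasts and smooth muscle, had 40.0 RPKM in shEtnk1/2, 32.3 in shPcyt2, 32.0 in Etn-deprived and 26.4 in shPebp1, against 30.1 and 28.6 RPKM in shLuc, and rose by 0.43 in shEtnk1/2 (SE 0.08, limma adjusted p = 0.0243). Col14a1 had 7.57 RPKM in shEtnk1/2, against 5.88 and 5.24 RPKM in shLuc, and did not pass (log2 difference 0.39, limma adjusted p = 0.142). Col20a1 was lower in all 4 treated libraries, at 1.18, 1.02, 1.12 and 1.08 RPKM in shEtnk1/2, shPcyt2, Etn-deprived and shPebp1, than in shLuc, at 1.504 and 1.46 RPKM. It rested on 83 to 127 reads, with an interval of 0.961 to 1.44 RPKM in shEtnk1/2, against 1.2535 to 1.79 RPKM in shLuc replicate 1, and none of these differences passed.

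The basement membrane genes went the other way or stayed near shLuc. Their median log2 difference in shEtnk1/2 was -0.10, close to the -0.06 of all genes. Below both controls were 3 of the 4, where 51.9% of all genes were. Col4a1 (chromosome 8, 11198423 to 11312826) had 148.0 RPKM in shEtnk1/2, 176.4 in shPcyt2, 177.3 in Etn-deprived and 177.2 in shPebp1, against 185.3 and 182.7 RPKM in shLuc. It fell by 0.31 in shEtnk1/2 (SE 0.06, limma adjusted p = 0.0296), to 0.805 times the shLuc mean, a call that scaling to a common median ratio ended (-0.25, limma adjusted p = 0.0897). Col4a2, its partner in the type IV network of nearly all basement membranes, is read from the other strand, and the annotated starts of both genes have 2 bases between them. Col4a2 had 154.8 RPKM in shEtnk1/2, 167.7 in shPcyt2, 159.4 in Etn-deprived and 160.0 in shPebp1, against 175.0 and 168.0 RPKM in shLuc, and its difference of -0.15 in shEtnk1/2 did not pass (limma adjusted p = 0.258). The gene models of this pair do not overlap. Col4a5 and Col4a6, chains of more restricted basement membranes, are a like divergent pair, 1342 bases apart on chromosome X. Col4a5 had 33.1 RPKM in shEtnk1/2, against 32.3 and 30.4 RPKM in shLuc, and Col4a6 had 2.39 RPKM, against 2.65 and 2.42 RPKM.

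The microfibrillar chains did not move as one. Col6a3, the longest of the main type VI chains, had 174.5 RPKM in shEtnk1/2, 138.7 in shPcyt2, 137.0 in Etn-deprived and 133.7 in shPebp1, against 140.8 and 141.7 RPKM in shLuc, and rose by 0.30 in shEtnk1/2 (SE 0.06, limma adjusted p = 0.0349). Col6a1 had 562.0 RPKM in shEtnk1/2, against 521.9 and 508.1 RPKM in shLuc (log2 difference 0.13, limma adjusted p = 0.28). Col6a2 had 431.2 RPKM in shEtnk1/2, against 407.1 and 392.8 RPKM (0.11, limma adjusted p = 0.372). All 3 were above both controls in shEtnk1/2 (25% of all genes were), and all 3 below both in Etn-deprived (41.9% of all genes were). Col6a2 had 361.8 RPKM in Etn-deprived and a log2 difference of -0.14 (limma adjusted p = 0.224).

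Among the other classes no gene passed against shLuc. Col8a1, a short network-forming chain of vessel walls and cornea, had 74.5 RPKM in shEtnk1/2, 61.5 in shPcyt2, 69.7 in Etn-deprived and 51.5 in shPebp1, against 61.7 and 55.7 RPKM in shLuc, and missed the threshold in shEtnk1/2 (0.34, limma adjusted p = 0.0553). Its partner Col8a2 had 2.54, 2.28, 1.86 and 0.732 RPKM in shEtnk1/2, shPcyt2, Etn-deprived and shPebp1, against 1.09 and 1.74 RPKM in shLuc. The shLuc pair itself lay 0.39 apart on the log2 scale for Col8a2, and 0.61 apart for Col7a1, the anchoring fibril gene of skin, so the differences of these genes could not be told from that spread. Col7a1 had 4.33, 3.72, 3.46 and 1.88 RPKM in shEtnk1/2, shPcyt2, Etn-deprived and shPebp1, against 2.29 and 4.03 RPKM in shLuc. Col18a1, the source of the fragment endostatin, had 27.6 RPKM in shEtnk1/2, against 20.8 and 24.1 RPKM in shLuc (0.29, limma adjusted p = 0.169), and the related Col15a1 had 12.3 RPKM, against 12.4 and 11.2 RPKM. Col23a1, a membrane-spanning collagen, was highest in shPebp1 with 6.36 RPKM, against 5.13 and 4.95 RPKM in shLuc (0.29, limma adjusted p = 0.858). Col28a1 was highest in Etn-deprived with 2.86 RPKM, against 2.27 and 1.48 RPKM in shLuc (0.44, limma adjusted p = 0.281), and Col26a1 ranged from 4.59 to 5.56 RPKM over the 6 libraries.

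The shEtnk1/2 library was highest of the 6 for 20 of the 29 collagens, where it was highest for 12% of all genes tested. It lay above both shLuc libraries for 20 of the 29 (25% of all genes) and below both for 5 (51.9% of all genes). Against shLuc replicate 1 alone, 21 of the 29 were higher in shEtnk1/2, with a median log2 difference of 0.31, and against shLuc replicate 2 alone 23 were higher, with a median of 0.23. The median over all genes was -0.06 in both cases. The shLuc libraries differed from each other by a median of -0.02 over the 29 (replicate 2 minus replicate 1), with 10 higher and 19 lower. The calls did not hold with 1 control. In those fits the spread came from differences between treatments, so the loss cannot be laid to either control. With shLuc replicate 1 or replicate 2 left out, and the spread taken from other treated libraries as 1 group, 0 of the 29 passed in limma, with 4 and 6 at an unadjusted p under 0.05, and the 10 called genes kept their direction.

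**Figure D3:**
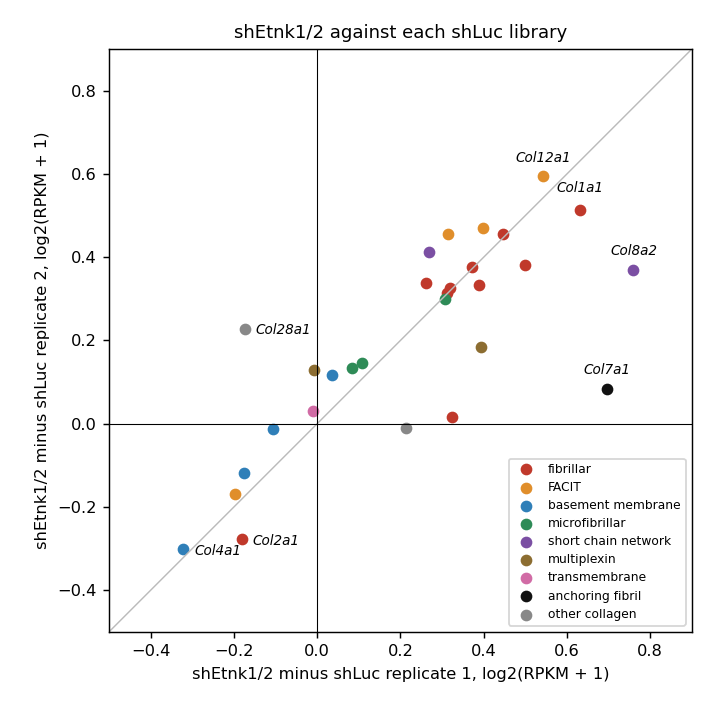
Difference of shEtnk1/2 from shLuc replicate 1 (x axis) and from shLuc replicate 2 (y axis), both on the log2(RPKM + 1) scale, for the 29 expressed collagens, coloured by class; the diagonal marks equal differences. Col1a1 and Col12a1 lie near the diagonal in the upper right and Col4a1 in the lower left, while Col7a1 and Col8a2 lie far off it.

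The other pathway libraries had few or no collagen calls. In shPcyt2 against shLuc, limma called 0 of the 29 collagens (0.109% of all genes were called). An unadjusted p under 0.05 was found for 2 of the 29 and for 713 of the 11939 genes tested. The count was also 0 with limma-voom on recovered reads. The median was 0.02, and 11 members lay above both shLuc libraries and 7 below both (29% and 39.4% of all genes). Against shLuc replicate 1 or replicate 2 alone the median was 0.03 and 0.05, with 16 and 17 of the 29 higher. Col1a1 differed by 0.15 and Col5a2 by 0.14, both with limma adjusted p = 0.836. In Etn-deprived against shLuc, Col12a1 was the 1 collagen that rose (0.586% of all genes were called higher), with a median of 0.04 over the 29, and 14 members lay above both shLuc libraries and 9 below both (36% and 41.9% of all genes). Of the 10 fibrillar members, 8 lay above both shLuc libraries in Etn-deprived (36% of all genes) and 9 in shEtnk1/2 (25% of all genes). Their median log2 differences were 0.10 in Etn-deprived and 0.34 in shEtnk1/2. Over the 29, the median in Etn-deprived was 0.08 against shLuc replicate 1 alone and 0.02 against replicate 2 alone, with 17 higher in each case. The Col12a1 call was lost once the trend with transcript length was removed (0.25, limma adjusted p = 0.147), and its adjusted p without shLuc replicate 1 or 2 was 0.79 and 0.822. Its transcript is the longest of the expressed collagens, at 11803 nt. With the 3 pathway libraries taken as 1 group against shLuc, limma called 0 of the 29 and 0% of all genes, while 4 of the 29 and 724 of all genes had an unadjusted p under 0.05. Limma-voom also called 0 of the 29. Col12a1 (0.34), Col8a2 (0.43), Col5a2 (0.23) and Col8a1 (0.22) were those 4, each with limma adjusted p = 0.812. The 3 are different treatments and not replicates.

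In shPebp1 against shLuc the collagens lay on the low side. The log2 difference was below 0 for 24 of the 29, where 53.1% of all genes were above 0, and the median was -0.09 over the 29 and 0.01 over all genes. The shPebp1 library was the lowest of the 6 for 16 of the 29 (11.7% of all genes), and below both shLuc libraries for 20 (31.7% of all genes). Limma called 0 of the 29 (0.101% of all genes were called), with 3 at an unadjusted p under 0.05, as were 698 of the 11939 genes tested. The 3 collagens were Col1a1 (-0.27, limma adjusted p = 0.323), Col1a2 (-0.16, limma adjusted p = 0.647) and Col5a1 (-0.18, limma adjusted p = 0.711). Limma-voom on recovered reads called 2 collagens lower, Col1a1 and Col7a1. Below shLuc replicate 1 alone were 25 of the 29, and below shLuc replicate 2 alone 22. The latter is the control whose Pebp1 level was close to that of shPebp1. The comparisons with shLuc share their controls, so their values are not independent of each other.

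Direct comparisons tested whether shEtnk1/2 differed from the other treated libraries, with 1 library on each side. Against shPcyt2, 3 collagens were higher in shEtnk1/2 (0.168% of all genes): Col12a1 by 0.46 (SE 0.07, limma adjusted p = 0.0264), Col1a1 by 0.42 (SE 0.07, limma adjusted p = 0.0298) and Col3a1 by 0.32 (SE 0.06, limma adjusted p = 0.0417). Scaling to a common median ratio left 0 of these, with adjusted p between 0.0531 and 0.0592, although the differences were larger there (0.50, 0.46 and 0.36 in the same order). Against Etn-deprived, Col1a1 alone passed (0.477% of all genes were called higher), at 0.48 (SE 0.07, limma adjusted p = 0.015). Col12a1 differed by 0.24 between shEtnk1/2 and Etn-deprived and did not pass (SE 0.07, limma adjusted p = 0.186). Against shPebp1, 10 collagens were higher in shEtnk1/2 (1.27% of all genes), with Col1a1 first at 0.85 (SE 0.07, limma adjusted p = 0.000788). The other 9 were Col12a1 (0.59), Col16a1 (0.58), Col5a1 (0.54), Col8a1 (0.52), Col1a2 (0.48), Col5a2 (0.48), Col11a1 (0.39), Col6a3 (0.38) and Col3a1 (0.35). When either shLuc library was left out and the 3 libraries outside a comparison supplied the spread, 0 collagens passed limma in any of the 3 comparisons, with 3 to 14 at an unadjusted p under 0.05.

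As a share of all reads in genes, the 44 collagen genes took 6.73% in shEtnk1/2, 5.47% in shPcyt2, 5.58% in Etn-deprived and 4.80% in shPebp1, against 5.225% and 5.29% in shLuc. The shEtnk1/2 library was thus the highest and shPebp1 the lowest, with the shLuc pair close together between them. The summed RPKM of the basement membrane genes ran the other way, at 338.5 in shEtnk1/2, 378.5 in shPcyt2, 371.4 in Etn-deprived and 367.9 in shPebp1, against 395.5 and 383.8 in shLuc. No test was made of these sums, which are led by a few genes. In bulk RNA, fewer cells that make collagen and less collagen RNA per cell cannot be told apart.

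Ratios between chains that assemble together were also compared by library, as a description. The ratio of Col1a1 to Col1a2 was 1.075 in shEtnk1/2, 0.955 in shPcyt2, 0.898 in Etn-deprived and 0.834 in shPebp1, against 0.865 and 0.944 in shLuc. The shEtnk1/2 library was the one in which Col1a1 exceeded Col1a2. The ratio of Col4a1 to Col4a2 was 0.957 in shEtnk1/2, 1.05 in shPcyt2, 1.11 in Etn-deprived and 1.11 in shPebp1, against 1.06 and 1.09 in shLuc, and shEtnk1/2 was the one library in which it was below 1. Col6a3 to Col6a1 stood at 0.311 in shEtnk1/2, and at 0.261 to 0.279 in the other 5 libraries. The ratios of Col5a1 to Col5a2 (0.888 to 0.992) and of Col6a1 to Col6a2 (1.28 to 1.39) put shEtnk1/2 inside the range of the other libraries.

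**Figure D4:**
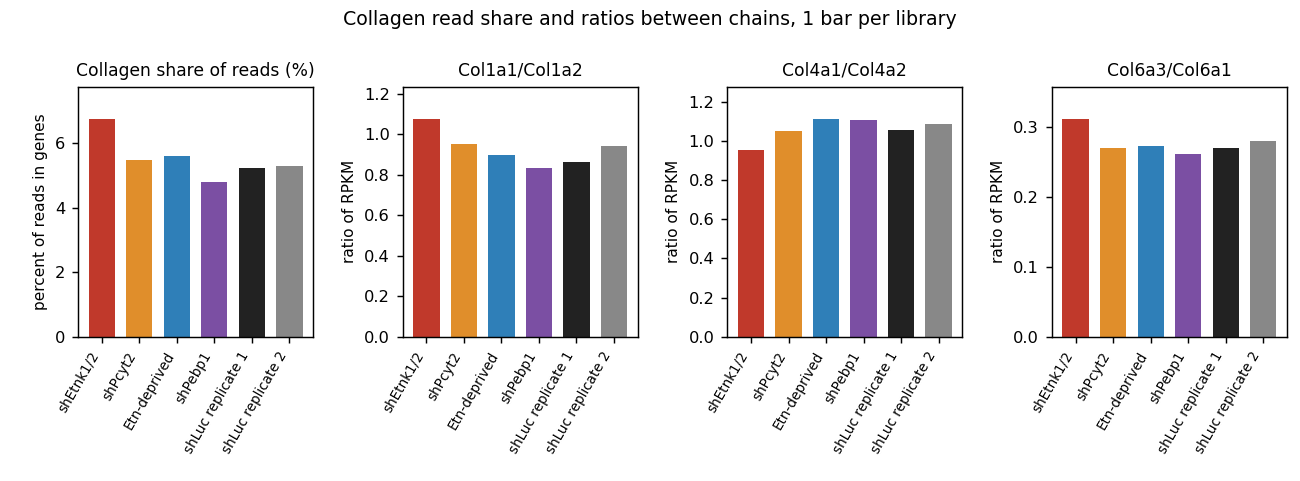
Share of reads in genes taken by the 44 collagen genes, in percent, and the RPKM ratios of Col1a1 to Col1a2, Col4a1 to Col4a2 and Col6a3 to Col6a1, with 1 bar per library and axes from 0. The shEtnk1/2 bar is the highest in the panels of read share, Col1a1/Col1a2 and Col6a3/Col6a1 and the lowest in that of Col4a1/Col4a2.

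Genes that modify, cross-link, bind or degrade collagen were read from the same fits. Without the filter on low values, 0 genes of the whole table were called in shEtnk1/2 or Etn-deprived against shLuc. None of the calls below held in that setting. Of 19 genes of procollagen modification and folding, 2 rose in shEtnk1/2 against shLuc, where 1.09% of all genes were called higher. They were P4ha3, a subunit of the prolyl 4-hydroxylase that stabilises the triple helix, by 0.53 (SE 0.10, limma adjusted p = 0.0198), and P3h3, a prolyl 3-hydroxylase family member listed in the table as Leprel2, by 0.37 (SE 0.09, limma adjusted p = 0.0491). The median of the 19 was 0.16. Of 11 tested genes of propeptide removal and cross-linking, 2 rose, both of them lysyl oxidases, which cross-link collagen. Lox had 198.9 RPKM in shEtnk1/2, 143.8 in shPcyt2, 173.1 in Etn-deprived and 123.9 in shPebp1, against 131.6 and 137.7 RPKM in shLuc. Lox rose by 0.56 in shEtnk1/2 (SE 0.07, limma adjusted p = 0.00299) and by 0.36 in Etn-deprived (SE 0.07, limma adjusted p = 0.017), and Loxl2 rose by 0.46 in shEtnk1/2 (SE 0.08, limma adjusted p = 0.0153). Of 6 tested collagen receptors, Itga11 rose by 0.57 (SE 0.10, limma adjusted p = 0.0164) and its partner Itgb1 by 0.27 (SE 0.06, limma adjusted p = 0.0453). Of 4 tested genes of collagen degradation, Ctsk, which codes for the collagen-cleaving protease cathepsin K, rose by 0.34 (SE 0.07, limma adjusted p = 0.0286). None of the tested genes of these 4 lists was called lower in shEtnk1/2 (2.37% of all genes were). None was called in shPcyt2 or shPebp1 (0.109% and 0.101% of all genes were). The comparison of the 3 pathway libraries with shLuc also called none (0% of all genes). At such shares, no calls in these lists do not set them apart from other genes.

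Markers of cell types also moved in shEtnk1/2, and their part in the collagen result was not tested. The marker calls were likewise lost without the filter on low values, where 0 genes were called. Of the 8 fibroblast markers, 3 rose (Pdgfra, Dcn and Lum) and 0 fell (1.09% and 2.37% of all genes), and their summed level was 4014 RPKM in shEtnk1/2, 3509 to 3703 RPKM in the other treated libraries, and 3570 and 3368 RPKM in shLuc. Of 6 tested epithelial markers of 8 listed, Cdh1 fell by 0.65 (SE 0.12, limma adjusted p = 0.0215), and the summed level was 14.4 RPKM in shEtnk1/2, 20.3 to 22.8 RPKM in the other treated libraries, and 22.9 and 23.75 RPKM in shLuc, with Cldn4 at 0 in shEtnk1/2, shPebp1 and shLuc replicate 1 and Cldn7 at 0 in Etn-deprived. Of 4 tested macrophage markers of 8 listed, Lyz2 rose by 0.34 (SE 0.08, limma adjusted p = 0.0478). The 4 were split, with 2 above 0 and 2 below 0 and a median log2 difference of 0.07. The sum of the 8 was 64.3 RPKM in shEtnk1/2, 49.2 to 52.6 RPKM in the other treated libraries, and 52.1 and 53.95 RPKM in shLuc. Ptprc, also on this list and not among the 4 tested, was at 0.193 RPKM or less in every library. Sums of the endothelial markers were 21.7 to 25.5 RPKM, of the cartilage markers 5.96 to 7.37 RPKM and of the muscle markers 0.818 to 1.78 RPKM over the 6 libraries.

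The expressed collagens share features of their transcripts that bear on RPKM. Their median length was 5832 nt, where that of all genes tested was 2926 nt, and their median GC content was 56.7%, where that of all genes was 50.2%. With the trends of the values with length and GC content removed together, an alternative chosen after seeing the data, 7 collagens were called higher in shEtnk1/2 against shLuc and 0 lower. Col4a1 differed by -0.27 in that setting (limma adjusted p = 0.0876).

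The 15 collagens below the limit had means of 0.033 to 0.572 RPKM and were tested only in the fit without a filter on low values. They were Col11a2 of the fibrillar class, Col9a1, Col9a2, Col9a3, Col19a1 and Col22a1 of the FACIT class, Col4a3 and Col4a4 of the basement membrane class, Col6a4, Col6a5 and Col6a6 of the microfibrillar class, Col10a1 of the short chain class, and the transmembrane Col13a1, Col17a1 and Col25a1. Col9a1, Col9a2 and Col9a3, which make up the type IX collagen of cartilage, had means of 0.259, 0.399 and 0.290 RPKM, and Col10a1, the collagen of hypertrophic cartilage, 0.572 RPKM. Col4a3 and Col4a4, the divergent pair of the kidney filter, 71 bases apart, had means of 0.0518 and 0.203 RPKM. At such depth a library held from 1 to 101 reads of each, and differences between libraries were largely not detectable.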

How the data were processed

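The authors deposited RPKM values for 6 libraries on 18303 lines. The submitters' processing notes name Bowtie 0.12.2 and the build mm10. Gene models, counting program and strand setting are not stated in the sources used here. On 26 lines a gene name had become a date, and these were kept. Where a name stood on more than 1 line, the line of higher mean was used, which left 18301 genes. Gene positions are those of the deposited table.

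RPKM values are not counts, so tests ran on log2(RPKM + 1), which understates the change of low genes. Whole reads were recovered for all 18303 lines from the steps of the values, within 1e-05 reads plus a relative 5e-09. They gave the depth, the Poisson intervals and the transcript lengths. GC content came from GENCODE transcripts, matched for 99.4% of the genes tested.

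The 11939 genes whose mean reached 1 RPKM were fitted with limma 3.58.1 in R 4.3.3 (trended, robust empirical Bayes) as 5 group means. The shLuc pair gave 1 residual degree of freedom, beside a prior of 9.24, which takes the variation of each treated library to equal that of shLuc. The 3 pathway libraries were also fitted as 1 group against shLuc (3 residual degrees of freedom, prior 6.37). Two-sided p-values were adjusted after Benjamini and Hochberg across the whole table, and 0.05 was the threshold. The scripts were checked on data simulated for shEtnk1/2 against shLuc. Changes of 1.25, 1.5 and 2 fold were placed in 67, 67 and 66 genes. The fit recovered 7.5% of changes of 1.25 fold, 67.2% of 1.5 fold and 93.9% of 2 fold, with 19 false calls. False calls were a larger share of the calls than the threshold of 0.05. Changes of 1.25 fold were thus mostly missed, so a count of 0 calls does not show their absence.

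Every expressed collagen was described, as were members of 4 collagen-related lists called against shLuc and the targeted genes. The members, classes and lists were chosen with earlier results of these data known. One list of cell type markers is not reported here. Alternatives were a pseudocount of 0.1 RPKM, no filter or a mean of at least 5 RPKM, scaling to a common median ratio, quantile normalization, limma-voom on recovered reads, removal of the trend with length, and leaving out libraries. Removal of length and GC trends together, and leaving out a shLuc library in the direct comparisons, were added after seeing the data.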

Additional observations from a re-analysis of the deposited data

How the results depend on the processing

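The 25 collagen differences called over all comparisons were each recomputed under 10 alternatives. In 134 of these results the call held, in 115 it was lost without a change of sign, and in 1 the sign turned. The one that turned was Col1a2 in shEtnk1/2 against shLuc, at -0.0948 under quantile normalization (limma adjusted p = 0.382), a setting that gives genes of equal rank in their library equal values; Col1a2 differed by 0 from shPebp1 in it. The adjusted p of the 10 genes called in that comparison ranged up to 1 over the alternatives.

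In shEtnk1/2 against shLuc, the 10 collagen calls were 0 with no filter on low values, 5 under quantile normalization, 17 with limma-voom, 4 with the length trend removed and 0 to 0 without a shLuc library. The counts were 10 with a pseudocount of 0.1 RPKM, 11 with a mean of at least 5 RPKM, 10 with a common median ratio and 7 with length and GC trends removed. The 413 calls over all genes were 0 with no filter, 249 with a common median ratio, 153 under quantile normalization (81 higher, 72 lower), 788 with limma-voom, 84 with the length trend removed, 147 with length and GC trends removed, and 3 to 5 without a shLuc library.

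In shPcyt2 against shLuc the collagen count was 0 in every alternative, and the 13 calls over all genes were 0 with no filter, 5 with a mean of at least 5 RPKM, 37 with limma-voom, 8 with the length trend removed and 0 to 3 without a shLuc library. In Etn-deprived against shLuc, the 1 collagen call was 0 with no filter, 0 with the length trend removed, 0 with length and GC trends removed, 2 with limma-voom and 0 to 0 without a shLuc library. The 454 calls over all genes there were 0, 46, 57, 700 and 15 to 20 in those settings, 277 with a common median ratio and 197 under quantile normalization. In shPebp1 against shLuc, limma-voom called 2 collagens where limma called 0, and the 12 calls over all genes were 0 with no filter, 5 with the length trend removed, 6 with length and GC trends removed and 0 to 0 without a shLuc library. For the 3 pathway libraries against shLuc, the collagen count was 0 in every alternative. The count over all genes was 0 in limma (724 at an unadjusted p under 0.05), 1 with a pseudocount of 0.1 RPKM, 5 with no filter, and 0 to 8 with 1 library left out, the 8 without shPcyt2.

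In shEtnk1/2 against shPcyt2, the 3 collagen calls were 0 with no filter, 5 with a mean of at least 5 RPKM, 0 with a common median ratio, 0 under quantile normalization, 10 with limma-voom, 0 with the length trend removed, 0 with length and GC trends removed and 0 to 0 without a shLuc library. The 110 calls over all genes were 0, 201, 15, 12, 253, 4, 4 and 0 to 0 in the same settings (5 higher and 10 lower with a common median ratio, 6 and 6 under quantile normalization, 20 and 90 as reported). In shEtnk1/2 against Etn-deprived, the 1 collagen call was 0 with no filter, 2 with a mean of at least 5 RPKM, 0 under quantile normalization, 10 with limma-voom, 0 with length and GC trends removed and 0 to 0 without a shLuc library. The 102 calls over all genes were 0 with no filter, 45 under quantile normalization, 366 with limma-voom, 36 with the length trend removed, 48 with length and GC trends removed and 0 to 7 without a shLuc library. In shEtnk1/2 against shPebp1, the 10 collagen calls were 0 with no filter, 17 with limma-voom, 6 with the length trend removed and 0 to 0 without a shLuc library. The 325 calls over all genes were 0 with no filter, 176 under quantile normalization (122 higher, 54 lower; 177 and 79 with a common median ratio; 152 and 173 as reported), 835 with limma-voom, 99 with the length trend removed, 151 with length and GC trends removed and 0 to 1 without a shLuc library.

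The setting without a filter adds genes with few reads to the fit. The cause of the moves was not tested for any setting. No paired analysis was possible because replicate numbers stand on the shLuc libraries alone. Each treatment rests on 1 library. Counting error was small for the abundant chains, while the members near 1 RPKM rest on few reads.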

Other observations

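Of the collagens below 1 RPKM, 3 were chosen after their values were seen. Col9a3, a chain of the type IX collagen of cartilage, had 11 reads in shEtnk1/2, 21 in shPcyt2, 2 in Etn-deprived and 12 in shPebp1, against 26 and 25 in shLuc. In Etn-deprived its level was 0.0378 RPKM (95% Poisson interval 0.00458 to 0.136), against 0.453 RPKM (0.296 to 0.664) and 0.446 RPKM (0.289 to 0.659) in shLuc. Col6a5, a minor type VI chain, had 49 reads in shEtnk1/2, 37 in shPcyt2, 34 in Etn-deprived and 23 in shPebp1, against 30 and 10 in shLuc, so that the controls themselves lay far apart. Col13a1, a membrane-spanning collagen, had 2 to 10 reads in the treated libraries, against 17 and 4 in shLuc. Outside the fit without a filter on low values, no test was made of these genes.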
